A study of Homo sapiens with 10 samples.

Results

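State C is the set of untreated Kuramochi cells that the authors' deposited cell table assigns to a state of that name. Kuramochi is a human line of serous ovarian carcinoma, labelled epithelial and BRCA2-mutant, and all 10 populations of the study share that line and genotype. Members were the cells whose state entry in the table is C, and their counts were taken from the deposited matrix by cell name. They number 453, out of 8240 cells in the table and 18209 in the matrix. All come from the untreated library, in which 1392 further cells are not in the table. The cells they are set against carry the states S1 to S5 and come from 9 populations grown to confluency in olaparib at 1, 2.5, 5, 10, 20, 40, 80, 160 or 320 µM, reached by stepwise escalation. S1 has 2032 cells (1 to 5 µM), S2 has 1454 (2.5 to 20 µM), S3 has 588 and S4 has 1805 (10 to 80 µM each), and S5 has 1908 (160 and 320 µM). Each population was made into 1 inDrop library, in which single cells are captured in droplets with barcoded beads and each captured RNA molecule is counted once by its unique molecular identifier (UMI). State C was therefore measured in 1 library, no p-value is given, and what belongs to the state and what belongs to that library cannot be told apart. Intervals below are exact 95% intervals that cover counting error only.

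High-grade serous carcinoma is thought to arise mostly from secretory cells of the fallopian tube, and its cells commonly keep the transcription factors PAX8, SOX17 and WT1 of the Müllerian lineage, together with secreted products such as SPP1 (osteopontin) and WFDC2 (HE4). Olaparib blocks PARP1, an enzyme that marks broken DNA strands with chains of ADP-ribose, and holds it on the DNA. Cells without working BRCA2 repair the resulting breaks poorly, which is why BRCA2-mutant tumours are treated with such drugs. State C gives the drug-naive side of that comparison.

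State C cells were sequenced more deeply than the others. They held 2898842 UMIs, with a median of 5946 per cell (707 to 17644), against medians of 2319, 2279, 2507, 2918 and 2805 in S1 to S5. Mitochondrial genes took 11.8% of UMIs in State C and 8.03% to 9.35% in the later states. For this reason levels are given as counts per 1000000 UMIs (CPM) of the summed cells. Single cells were compared after each was thinned to 1000 UMIs, which left out 54 cells of State C and kept 399. Summed CPM still weight the deeper cells, and the quartiles of State C were 1708 and 10080 UMIs per cell. Summed over the thinned cells, FOSB stood at 27.6 CPM in State C instead of 53.5 CPM, and PIMREG at 87.7 CPM instead of 59.7 CPM. SPP1 and SOX17 moved less, to 784 and 393 CPM. Cells with division transcripts were also more frequent: at that depth 26.8% of State C cells (22.5 to 31.5; 107 of 399) had 3 or more UMIs of the G2/M genes, against 7.12%, 6.76%, 8.07%, 6.0% and 10.1% in S1 to S5. The untreated cells outside the table were far above all of these, at 82.9%. The barcodes of 44 State C cells, 9.71%, also occur in another library. No gene of the untreated library has UMIs in fewer than 18 of its cells, and 1138 of the matrix's 12373 genes are listed at 0 there, so a level of 0 can stand for a gene seen in under 1% of the cells. The treated libraries have a like floor, at 0.957% to 0.995% of their cells.

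The 3 markers of the state were present in State C, and none of them marked every cell. SPP1, on chromosome 4, stood at 855 CPM in State C, against 304, 271, 271, 24.3 and 80.1 CPM in S1 to S5. SOX17 stood at 382 CPM in State C, against 141, 31.9, 25.8, 5.58 and 61.9 CPM. For both genes State C was the highest of the 6 states, and S4 was the lowest. WT1, on chromosome 11, stood at 139 CPM in State C, against 81.5, 9.77, 108 and 10.8 CPM in S1 to S4, and it is listed at 0 in S5. State C was nearest to S3 for WT1, and the S3 cells grown at 10 µM were above it at 182 CPM.

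Among single cells thinned to 1000 UMIs, SPP1 had a UMI in 44.6% of State C cells (39.7 to 49.6), against 19.6%, 16.4%, 16.7%, 2.23% and 6.11% of S1 to S5 cells. SOX17 had one in 30.3% of State C cells (25.9 to 35.1), against 12.2%, 2.51%, 1.65%, 0.514% and 6.11%. WT1 had one in 12% of State C cells (9.0 to 15.6), against 7.47%, 0.943%, 11.2% and 1.14% of S1 to S4 cells, and it is listed at 0 in S5. At full depth the shares in State C were 78.7%, 70.7% and 47.1%. Little pairing of the markers was seen from cell to cell: among 245 State C cells thinned to 5000 UMIs, Pearson's r was 0.09 between SPP1 and SOX17, -0.03 between SPP1 and WT1, and 0.15 between SOX17 and WT1, and counts as low as these do not show whether the genes are independent. These cells share 1 library, and no cell type that lacks the genes is among them, so the share that free RNA gives was not measured.

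The epithelial label was carried by keratins rather than by EPCAM. KRT8 stood at 1103 CPM in State C, against 1080, 450, 1308, 234 and 177 CPM in S1 to S5, and KRT18 at 557 CPM, against 413, 166, 752, 220 and 121 CPM. EPCAM, a surface adhesion protein that defines most carcinoma cells, is listed at 0 in State C and did not pass 5.4 CPM in S1 to S5. PAX8 stood at 361 CPM in State C, against 530, 259, 249, 152 and 251 CPM. WFDC2 stood at 548 CPM in State C, against 463, 503, 320, 1079 and 505 CPM. Of 12 immune markers, 2 are in the matrix, and both (CD68 and CD74) are at 0 in State C. Endothelial markers in the matrix (4 of 8) summed to 20.0 CPM in State C (4.30 to 201 in the later states), with 1 of them at 0. Fibroblast markers (5 of 10) summed to 48.3 CPM (134 to 464), with 3 at 0, and mesothelial markers (4 of 8, WT1 among them) to 207 CPM (0 to 199).

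A gene was counted as higher or lower where log2(CPM + 10) differed by at least 1 (a 2-fold difference after 10 CPM are added, which understates the fold of low genes), and was tested for this where it reached 50 CPM in at least 1 of the 2 states and 100 UMIs over all cells in the table. By that rule 89 of 4039 genes (2.20%) were higher in State C than in S1 and 214 (5.30%) were lower. Against S2 the counts were 204 higher (4.93%) and 352 lower (8.50%) of 4139, and against S3 they were 344 (8.25%) and 386 (9.26%) of 4169. Against S4 they were 531 (12.7%) and 457 (10.9%) of 4174, and against S5 521 (11.6%) and 596 (13.3%) of 4495. The balance against S5 turned with the scaling, to 693 higher and 376 lower under TMM and 732 and 357 under DESeq2 size factors, and that against S3 to 384 and 353, and 398 and 345. In either direction 7.50%, 13.4%, 17.5%, 23.7% and 24.8% of the tested genes passed against S1 to S5. Counts of gene lists given below are to be read beside these shares of all tested genes. State C was thus nearest to S1 by the number of genes, and the root mean square of the differences ran in the same order as the states, at 0.57, 0.74, 0.77, 0.96 and 1.02. These comparisons share the State C cells and are not independent of each other.

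State C stood above all 5 later states in 28 of 3498 genes (0.800%) and below all 5 in 25 of 2505 (0.998%). Among the genes above are secreted and surface proteins (SPP1, NMU, SERPINA5, SPON1, F3, LTB, UPK1B), genes of development and retinoid metabolism (SOX17, ALDH1A2, ETV4), genes of division (KIF20A, PIMREG, HMMR, CDC20, MYBL2, CKS1B) and S100 proteins (S100A10, S100A16). This grouping was made after the genes were seen. NMU, which encodes the peptide neuromedin U, stood at 59.0 CPM in State C, against 7.45, 4.11, 3.07, 3.24 and 2.18 CPM. F3, tissue factor, stood at 59.3 CPM in State C, against 5.35, 8.49, 11.1, 7.02 and 1.09 CPM. The highest later state was S1 for NMU and S3 for F3.

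SERPINA5, a serine protease inhibitor, stood at 148 CPM in State C, against 40.3, 2.83, 11.7, 1.62 and 0 CPM in S1 to S5. ALDH1A2, which makes retinoic acid, stood at 110 CPM in State C, against 28.8, 4.37, 0, 0.180 and 10.7 CPM. SPON1, a secreted matrix protein, stood at 404 CPM in State C, against 184, 29.3, 136, 9.36 and 40.2 CPM. All 3 had S1 as the next state down. STXBP6 stood at 104 CPM in State C, against 23.1, 18.8, 9.84, 6.66 and 32.9 CPM. S100A10, an abundant partner of annexin A2, stood at 2306 CPM in State C, against 1030, 479, 844, 755 and 688 CPM.

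Several of the 28 are genes of cell division. KIF20A, a kinesin of late mitosis, stood at 132 CPM in State C, against 27.9, 37.0, 28.9, 27.7 and 21.1 CPM, and MYBL2, a transcription factor of cell cycle genes, at 164 CPM, against 47.6, 43.0, 59.0, 30.1 and 28.8 CPM. Without the 107 State C cells of 3 or more G2/M UMIs (the 54 cells under 1000 UMIs were not scored and were kept), 19 of the 28 genes stayed above all 5 states. The 9 that did not were PIMREG, KIF20A, HMMR, CDC20, TUBA1B, CYCS, ETV4, SMS and IGFL1. MYBL2 stayed, at 130 CPM, and SPP1 and SOX17 stood at 897 and 373 CPM. When each later state was divided by library into 17 sums, 10 of the 28 were above all of them (NMU, F3, SERPINA5, PIMREG, ALDH1A2, LTB, STXBP6, SOX17, GPD2 and CKS1B). LTB no longer met this without its 5 highest cells, at 26.4 CPM.

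Among the genes below all later states, SOX4, a transcription factor, stood at 97.6 CPM in State C, against 383, 422, 313, 310 and 279 CPM in S1 to S5. MAP1B, a microtubule-associated protein, stood at 29 CPM in State C, against 88.6, 179, 113, 308 and 183 CPM. FOSB, a subunit of AP-1, stood at 53.5 CPM in State C, against 160, 157, 277, 608 and 498 CPM. The 25 also hold 3 members of the ZFP36 family, which bind AU-rich elements and speed the decay of messenger RNA.

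ZFP36L1 stood at 108 CPM in State C, against 392, 401, 290, 298 and 311 CPM. ZFP36 stood at 39.0 CPM in State C, against 105, 134, 117, 336 and 140 CPM, and ZFP36L2 at 85.2 CPM, against 238, 573, 194, 269 and 273 CPM. FAM84B stood at 62.1 CPM in State C, against 181, 924, 243, 287 and 287 CPM, and ITPR2, a calcium channel of the endoplasmic reticulum, at 69.7 CPM, against 253, 277, 214, 252 and 354 CPM. SEZ6L2, SOX4 and FAM84B were the 3 genes below all 17 sums. Without the State C cells of 3 or more G2/M UMIs, 19 of the 25 stayed below, and the 6 that did not were EYA4, ARRDC3, ACTA2, ZKSCAN1, TRIB1 and KLF6. ITPR2 shares 20.4% of the 31-base words at its transcript ends with other genes, and TUBA1B shares 57.0%, so their counts may include reads of a related copy.

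**Figure D1:**
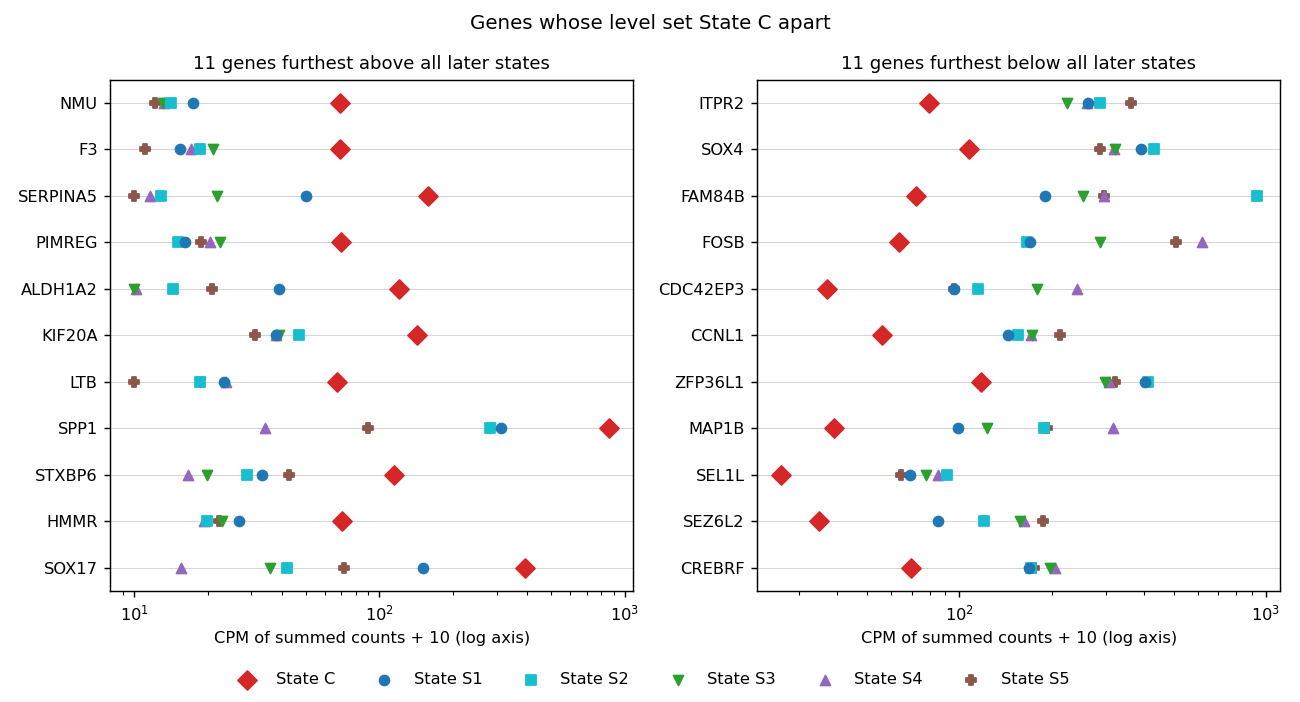
Levels (CPM + 10, log axis) of the 11 genes for which State C lay farthest above all later states and the 11 for which it lay farthest below, with 1 point per state. The State C points lie beyond all 5 later points of each gene, as for NMU (59.0 CPM, against at most 7.45) and SOX4 (97.6 CPM, against at least 279).

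Most tested genes of the list of secreted serous carcinoma products were higher in State C than in S4 and S5. Of this list, 5 of 12 tested genes were higher in State C than in S1 and 3 were lower. The counts were 4 and 0 of 9 against S2, 4 and 2 of 11 against S3, 7 and 0 of 9 against S4, and 6 and 0 of 9 against S5, and the medians of the log2 differences were 0.41, 0.91, 0.16, 2.83 and 3.04. With genes tested only from 200 CPM the median was 1.03 against S1 and 0.81 against S5. SNCG, a synuclein, stood at 161 CPM in State C, against 104, 81.0, 64.6, 8.28 and 0 CPM in S1 to S5. WFDC2, whose levels are given above, ran the other way against S4, where it stood at 1079 CPM. The epithelial list differed from S4 and S5 in the same direction, with 7 of 7 and 5 of 7 tested genes higher in State C, medians of 2.19 and 2.22, and none lower. Against S1 no epithelial gene passed the fold, and against S3 3 of 8 were lower in State C. DSP, which encodes the desmosome protein desmoplakin, stood at 278 CPM in State C, against 354, 86.7, 223, 32.6 and 25.3 CPM.

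The Müllerian lineage factors split. Against S4, 5 of 6 tested genes of that list were higher in State C, with a median of 2.08, and against S1 1 of 8 was higher and 3 were lower, with a median of -0.56. The counts were 2 higher and 1 lower of 7 against S2, of 6 against S3 and of 7 against S5. EMX2, a homeobox factor, stood at 90.7 CPM in State C, against 226, 104, 22.1, 5.94 and 46.2 CPM, and BCAM, a laminin receptor, at 217 CPM, against 646, 146, 342, 70.0 and 131 CPM. For both genes S1 was the highest state. CDKN2A, which encodes the CDK inhibitor p16, stood at 1100 CPM in State C, against 746, 629, 376, 50.7 and 529 CPM.

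The G2/M list had more genes higher than lower in State C in each comparison, with 6 of 10, 6 of 10, 8 of 10, 9 of 11 and 4 of 12 tested genes higher than in S1 to S5 and 0, 0, 0, 1 and 1 lower. The medians were 1.06, 1.37, 1.27, 1.47 and 0.83. Without the State C cells of 3 or more G2/M UMIs, which were chosen by genes of this list, those against S1 to S4 were 0.78, 0.75, 0.63 and 0.86. TOP2A, the topoisomerase of dividing cells, was an exception, at 45.5 CPM in State C against 44.3, 39.9, 31.4, 31.1 and 72.6 CPM. Of the genes of the G1/S step, 2 of 7, 0 of 7, 0 of 8, 0 of 7 and 1 of 7 were higher and none was lower. Of all tested genes 2.20% to 12.7% were higher in these comparisons. TYMS, which makes thymidylate for DNA, stood at 50.4 CPM in State C, against 7.64, 20.6, 21.5, 21.2 and 23.5 CPM.

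Interferon-stimulated genes and MHC class I genes are switched on by interferon through a shared DNA element, and the MHC class I genes present peptides to T cells. The promoters of 2 interferon-stimulated genes that varied together in State C, and of the MHC class I light chain B2M, are shown because each holds the core of that element, which was searched as GAAA, any 2 bases and GAAA again, or TTTC, any 2 bases and TTTC on the other strand. Capitals mark the matches, each sequence runs 5′ to 3′ on the gene's strand from 250 bases before to 50 bases after its start, and all are from RefSeq on GRCh38.p14.
IFI6 (chr1:27672143-27672442, minus strand): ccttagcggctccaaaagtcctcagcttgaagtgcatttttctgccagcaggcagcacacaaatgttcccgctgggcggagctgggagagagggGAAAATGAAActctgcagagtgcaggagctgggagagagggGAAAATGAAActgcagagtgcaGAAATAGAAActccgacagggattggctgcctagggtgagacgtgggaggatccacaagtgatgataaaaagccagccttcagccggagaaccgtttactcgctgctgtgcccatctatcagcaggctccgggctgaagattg
IFI27 (chr14:94110486-94110785, plus strand; first of 2 entries): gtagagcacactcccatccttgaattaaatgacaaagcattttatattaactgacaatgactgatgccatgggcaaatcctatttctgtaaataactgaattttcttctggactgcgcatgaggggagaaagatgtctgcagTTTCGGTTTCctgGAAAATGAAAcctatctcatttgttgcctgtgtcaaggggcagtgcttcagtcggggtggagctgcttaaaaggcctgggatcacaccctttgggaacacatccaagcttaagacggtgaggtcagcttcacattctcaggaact
B2M (chr15:44711267-44711566, plus strand): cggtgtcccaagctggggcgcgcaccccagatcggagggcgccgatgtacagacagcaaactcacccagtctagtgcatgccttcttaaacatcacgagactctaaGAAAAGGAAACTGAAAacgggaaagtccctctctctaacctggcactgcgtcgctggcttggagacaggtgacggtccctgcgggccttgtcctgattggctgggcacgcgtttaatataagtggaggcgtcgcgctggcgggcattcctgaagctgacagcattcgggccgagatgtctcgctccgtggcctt
The element has 3 matches in the IFI6 window, 2 in the IFI27 window and 2 that overlap each other in the B2M window. It is found in 15 of the 23 promoters of interferon-stimulated genes and 5 of the 8 promoters of MHC class I genes found in the table, and in 3.57% of all 35116 promoters of that length. A match is a run of letters and was not tested as a binding site.

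By the medians over tested genes, State C was below S1 and S2 and above S4 and S5 for the interferon list. Compared with S1, 10 of 15 tested genes were lower in State C and none was higher, with a median of -1.32. Against S2, 8 of 15 were lower and 1 was higher (median -1.0), and against S3 2 of 11 were lower and 1 was higher (median -0.11). Against S4 and S5, 5 of 10 and 7 of 10 were higher and none was lower, with medians of 0.77 and 1.46. The summed level of the list gave another order against S4, at 3689 CPM in State C, against 8896, 4430, 4235, 3840 and 1741 CPM in S1 to S5, so that by the sum State C was above S5 alone. Per 1000 UMIs of single cells the list averaged 3.59 in State C, against 8.93, 4.30, 4.15, 3.81 and 1.74. IFI6, a mitochondrial interferon-induced protein, stood at 165 CPM in State C, against 1295, 448, 108, 56.5 and 20.6 CPM. IFI27 stood at 149 CPM in State C, against 749, 50.7, 146, 32.7 and 0 CPM, and BST2 (tetherin) at 306 CPM, against 777, 478, 521, 81.3 and 95.7 CPM. Of the MHC class I genes, 3 of 9, 2 of 9, 3 of 9, 3 of 9 and 1 of 9 were lower in State C than in S1 to S5, and 2 were higher than in S5. Of all tested genes 5.30% to 13.3% were lower in these comparisons.

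Inside State C, MHC class I genes gave some of the strongest pairings between cells. Across 245 cells thinned to 5000 UMIs, r was 0.60 for HLA-B with HLA-C, 0.39 for HLA-B with B2M and 0.31 for IFI6 with IFI27. The middle 95% of all 1666220 gene pairs lay between -0.13 and 0.14, and 559 pairs, 0.0335%, reached 0.3. The HLA class I genes share part of their sequence, which can move UMIs between them, whereas B2M is a separate gene. In cells thinned to 1000 UMIs, the summed interferon list varied 1.5 times as much as its members would if they varied independently (1.09 to 2.57 over 14 sums of later states and libraries), and 6.52% of State C cells reached the median of S1 cells, against 51.3% of S1 cells.

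Genes of the immediate early response, transcribed within minutes of a stimulus and including the AP-1 subunits, had lower medians in State C against each later state. Of the tested genes 7 of 12, 6 of 12, 10 of 13, 12 of 14 and 4 of 11 were lower than in S1 to S5, none was higher, and the medians were -1.10, -1.09, -1.38, -2.03 and -0.64. EGR1, a zinc finger factor of that response, stood at 258 CPM in State C, against 961, 687, 831, 1342 and 261 CPM. FOS stood at 137 CPM in State C, against 268, 322, 364, 617 and 172 CPM, and JUNB at 98.3 CPM, against 297, 189, 272, 309 and 159 CPM. Single State C cells at the S4 level were uncommon: 6.52% reached the S4 median of 4 UMIs per 1000, against 52.4% of S4 cells.

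Among mesenchymal genes more were lower than higher in State C in each comparison. In the 5 comparisons 6 of 16, 11 of 17, 6 of 16, 10 of 18 and 5 of 15 tested genes were lower in State C and 0, 0, 1, 1 and 3 were higher, with medians of -0.70, -1.41, -0.46, -1.29 and 0.01. VIM, the intermediate filament of mesenchymal cells, stood at 637 CPM in State C, against 659, 1440, 985, 2145 and 1691 CPM. ACTA2, smooth muscle actin, stood at 70.4 CPM in State C, against 222, 734, 156, 1399 and 199 CPM. S100A4 ran the other way. This small calcium-binding protein stood at 4455 CPM in State C, against 3837 CPM in S1, 656 CPM in S4 and 683 CPM in S5. In single cells 11% of State C cells reached the S4 median of 14 UMIs per 1000 for the summed list, against 53% of S4 cells. The list summed to 9235 CPM in State C and 15750 CPM in S4, of which S100A4 gave 4455 and 656 CPM. In State C this share therefore rests in large part on S100A4, and it was not computed without that gene.

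TGF-beta targets were lower in State C than in S5 in 8 of 12 tested genes, with 1 higher and a median of -1.17. The lower and higher counts were 1 and 0 of 9 against S1, 5 and 0 of 12 against S2, 2 and 4 of 9 against S3, and 5 and 0 of 12 against S4. CTGF, a matricellular protein, stood at 758 CPM in State C, against 729 CPM in S1, 3076 CPM in S4 and 2517 CPM in S5. CYR61, its relative, stood at 178 CPM in State C, against 206, 485, 259, 715 and 444 CPM. Both are known targets of the TEAD factors, and inside State C they varied together, with r of 0.35 across the 245 cells, as did CTGF with AMOTL2 at 0.30. The CTGF promoter is shown with the TEAD core GGAATG, or CATTCC on the other strand, in capitals.
CTGF (CCN2 in RefSeq; chr6:131951323-131951622, minus strand, GRCh38.p14): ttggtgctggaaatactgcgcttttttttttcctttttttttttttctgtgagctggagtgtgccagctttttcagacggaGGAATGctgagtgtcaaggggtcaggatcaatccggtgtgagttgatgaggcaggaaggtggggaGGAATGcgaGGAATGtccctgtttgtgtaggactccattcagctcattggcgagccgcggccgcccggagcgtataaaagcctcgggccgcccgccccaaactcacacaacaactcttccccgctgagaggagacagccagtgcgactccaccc
The core is found 3 times in this window and at least once in 4928 of the 35116 promoters, 14%.

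Metabolic lists had medians above 0 in State C against each later state, with few genes past the fold. Cholesterol synthesis had 0 of 13, 0 of 13, 2 of 13, 5 of 12 and 4 of 13 genes higher in State C than in S1 to S5 and none lower, with medians of 0.52, 0.57, 0.73, 0.96 and 0.77. HMGCS1, the enzyme that makes HMG-CoA, stood at 124 CPM in State C, against 57.7, 61.0, 65.2, 52.9 and 31.5 CPM. Glycolysis had 0 of 14, 3 of 16, 2 of 15, 5 of 16 and 5 of 17 higher and 0, 0, 1, 1 and 2 lower, with medians of 0.51, 0.56, 0.52, 0.60 and 0.04. Shares of all tested genes that were higher ran from 2.20% against S1 to 12.7% against S4. ENO1, enolase, stood at 4057 CPM in State C, against 2142 CPM in S1, 816 CPM in S4 and 1334 CPM in S5. ENO1 lies on chromosome 1, whose genes are described at the end.

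PARP1 stood at 331 CPM in State C, against 354, 205, 106, 146 and 119 CPM in S1 to S5. NMNAT2, which makes NAD, the substrate of PARP1, stood at 258 CPM in State C, against 337, 123, 78.1, 15.5 and 6.55 CPM. Of the PARP and NAD list 0 of 2, 1 of 3, 2 of 3, 2 of 3 and 2 of 3 tested genes were higher in State C than in S1 to S5 and none was lower, too few to set against the 7.50% to 24.8% of all tested genes that passed. Of the 30 genes of break repair and replication forks, 7 or 8 were tested in each comparison, and 1 passed the fold: XRCC5, a subunit of the Ku end-binding complex, was higher at 315 CPM in State C, against 106 CPM in S4. BRCA2 itself stood at 7.59 CPM in State C, against 12.2 CPM in S1, 4.14 CPM in S4 and 5.09 CPM in S5, from 22 UMIs in State C, below the level at which genes were tested.

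Several stress genes stood far lower in State C than in S5. HMOX1, heme oxygenase, stood at 16.6 CPM in State C, against 20.1 CPM in S1, 84.6 CPM in S4 and 391 CPM in S5. ASNS, asparagine synthetase of the amino acid response, stood at 27.6 CPM in State C, against 19.7, 63.0, 83.6, 83.5 and 260 CPM. It shares 100% of the 31-base words at its transcript end with other entries of the annotation, so its counts are less certain. Against S5, genes lower and higher in State C numbered 4 and 2 of 14 in the amino acid and endoplasmic reticulum stress list, 3 and 0 of 11 among NRF2 targets, 5 and 1 of 11 among hypoxia targets, 3 and 1 of 7 in the p53 and CDK inhibitor list and 4 and 0 of 15 in the lysosome list. Metallothioneins ran the other way, with 3 of 4 higher, as did heat shock genes with 6 of 13 and NF-kB targets with 3 of 5, and none of those 3 lists had a lower gene. Of all 4495 genes tested against S5, 13.3% were lower and 11.6% higher. Whether lists this short depart from those shares was not tested. The nuclear genes of the respiratory chain barely differed, with at most 3 of 30 past the fold in either direction in any comparison, and of the 13 mitochondrial ones at most 3 were higher and 2 lower, both against S5.

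Variation between State C cells was measured in cells thinned to 1000 UMIs. Of 832 genes at 200 CPM or more, the Fano factor (the variance over the mean of UMIs per 1000, which is 1 for counting alone) had a median of 1.08, with 90% of genes between 0.940 and 1.54. At means well under 1 UMI this factor stays near 1 even where levels differ between cells. The excess squared CV, which is the Fano factor less 1 over the mean, had a median of 0.165 in State C and of 0.132 to 0.315 in 14 sums of later states and libraries with 100 or more cells. It was 1 or more in 31 genes of State C, and 47 genes had a Fano factor of at least 1.5. Among the 15 genes of highest excess were FN1, IGF2, TAGLN, CYP1B1, TSC22D1, HIST1H4C, TINAGL1, MT1X, TXNIP, BOC, APOE, SPP1, RASSF8 and S100A2.

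FN1, which encodes the matrix protein fibronectin, stood apart, with a Fano factor of 11.6 and an excess of 30.2. It had a UMI in 7.77% of State C cells (5.34 to 10.8) and reached 27 UMIs per 1000 in 1 cell, and the 10 cells with most FN1 held 76.4% of its UMIs. In S1 to S5 it had a UMI in 41.5%, 54.2%, 87.2%, 86.6% and 24.5% of cells. IGF2, an insulin-like growth factor, followed with a Fano factor of 6.46 and an excess of 4.51, and 39.6% of State C cells had a UMI, with a highest cell of 22. IGF2 shares 64.5% of its end words with other entries of the annotation. SPP1 was the marker among the 15, with a Fano factor of 2.22, 6 cells of 5 or more UMIs and a highest cell of 13. Over 14 later sums the Fano factor ran from 3.31 to 11.8 for FN1, 3.66 to 8.03 for IGF2 and 0.960 to 3.70 for SPP1. The excess there ran from 0.616 to 5.96 for FN1, 0.367 to 7.58 for IGF2 and -0.880 to 18.8 for SPP1. For TAGLN, described next, it ran from 0.889 to 22.8. Of these genes only FN1 had an excess in State C beyond the later range.

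Some of the other genes of high excess had partners that varied with them. TAGLN, a smooth muscle actin-binding protein, had an excess of 3.58 and r of 0.49 with CALD1, 0.45 with FSTL1, 0.40 with TPM1 and 0.37 with MYL9, all but FSTL1 genes of contractile filaments. FN1 had r of 0.42 with IGF2, 0.35 with SPARC and 0.31 with VIM. TSC22D1 had r of 0.39 with PLPP3, TXNIP 0.38 with JUNB, MT1X 0.31 with MT2A, another metallothionein, and TINAGL1 0.39 with AJAP1. No partner reached an r of 0.3 for CYP1B1, HIST1H4C, BOC, APOE, SPP1, RASSF8 or S100A2, whose best values were 0.24 to 0.29. HIST1H4C, a histone H4 gene transcribed in S phase, had an excess of 1.84 and a highest cell of 12. The order of the 15 was not fixed at this depth: with another random thinning 7 of them stayed among the 15, and without the cells of 3 or more G2/M UMIs 12 did, while the excess of FN1 stayed between 22.4 and 32.8 and that of IGF2 between 4.65 and 5.44 under the other settings tried. The excess of TAGLN moved more, between 1.97 (at 700 UMIs per cell) and 4.59 (at 5000).

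**Figure D2:**
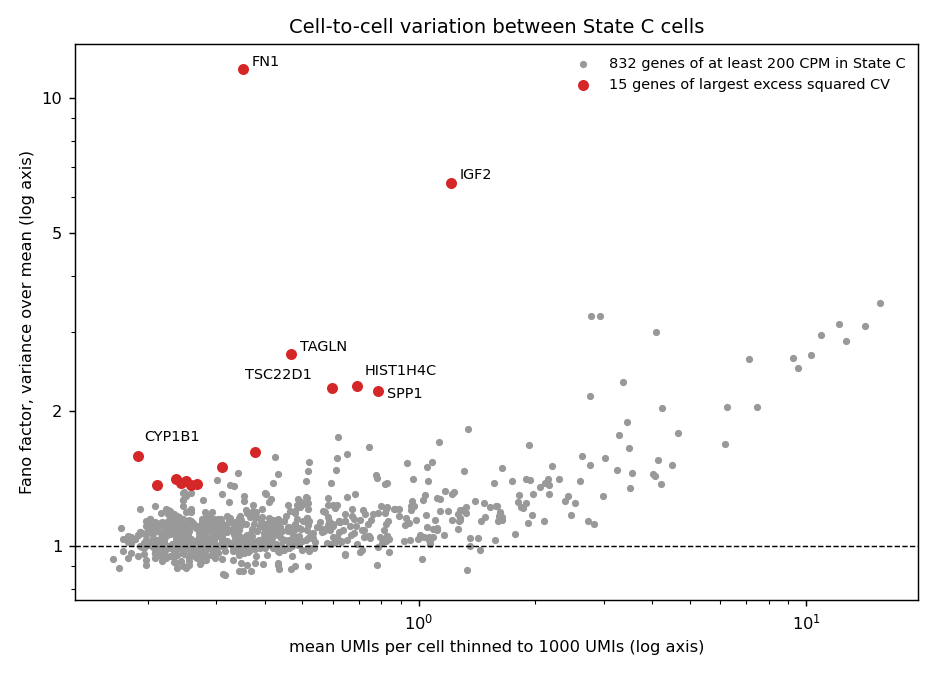
Fano factor against mean UMIs per cell (both log axes) of 832 genes in 399 State C cells thinned to 1000 UMIs, with 1 point per gene, the 15 genes of highest excess in red and 7 of them named. FN1 at 11.6 and IGF2 at 6.46 lie far above the median of 1.08, and the dashed line marks counting alone at 1.

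**Figure D3:**
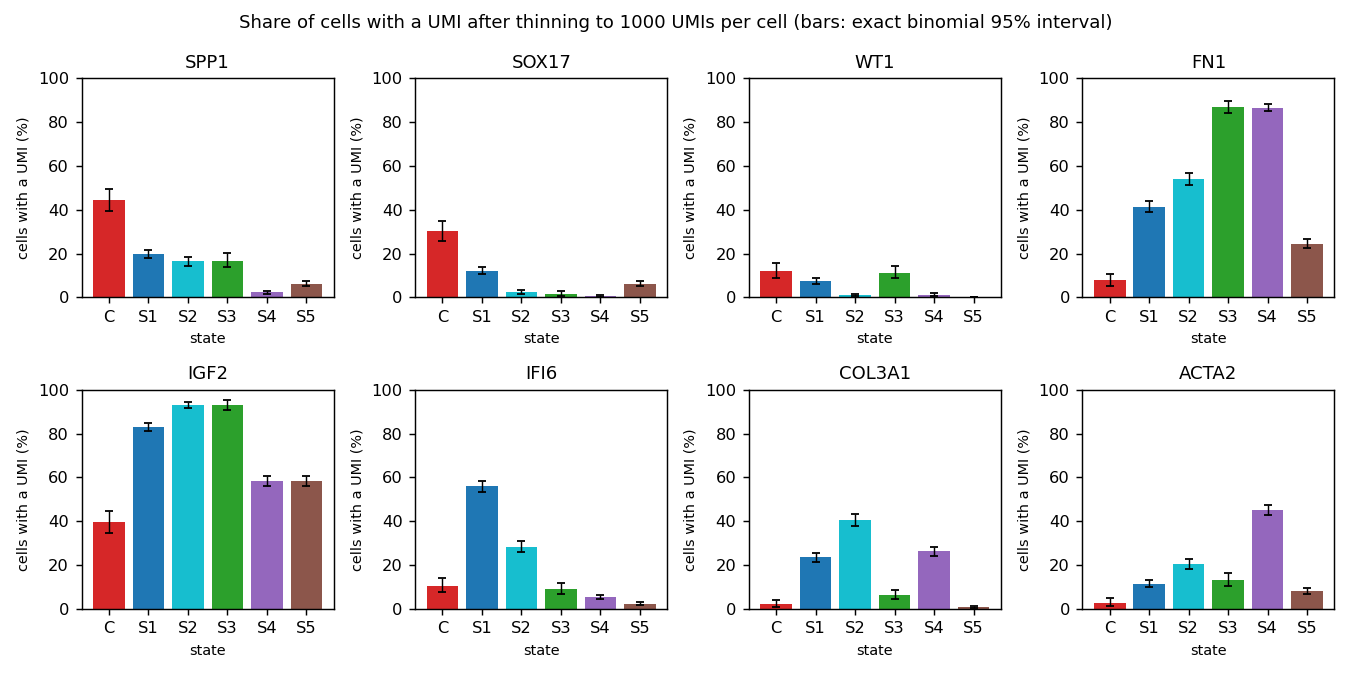
Share of cells with a UMI after thinning to 1000 UMIs, with exact 95% intervals, in State C and S1 to S5. State C is highest for SPP1 (44.6%) and lowest for FN1 (7.77%).

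A small number of State C cells held FN1 at the level of later states. Of 399 cells, 320 (80.2%) had no FN1 UMI at full depth, and 18 (4.51%, 2.70 to 7.04) reached the mean level of S1, 1540 CPM. These 18 held 82.6% of the FN1 UMIs of the 399, and 7 of them reached the S3 level of 5731 CPM, the highest with 29671 CPM. The lowest of the 18 had 1570 CPM, and the highest below the line had 1488 CPM. Depth did not separate them, with medians of 6549 UMIs in the 18 cells and 6987 in the other 381.

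The FN1-high cells differed in further genes, which are given as a description because the cells were chosen by FN1 and the genes by their difference. SERPINE2, a secreted protease inhibitor, stood at 616 CPM in the 18 cells and 51.0 CPM in the others, a ratio of 12.1 (9.03 to 16), and it had a UMI in 13 of the 18. IGF2 stood at 5322 CPM and 1046 CPM, a ratio of 5.09 (4.67 to 5.54). FAM84B stood at 308 CPM and 50.7 CPM, and SOX4 at 276 CPM and 89.9 CPM. Both genes are among those below all later states in State C as a whole, and the FN1-high cells lay within the later range for FAM84B.

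Among genes set without regard to these cells, AXL, a receptor tyrosine kinase, stood at 166 CPM in the FN1-high cells and 33.0 CPM in the others, and SPARC, a matrix protein, at 2140 CPM and 979 CPM. KRT8 stood at 545 CPM in the FN1-high cells and 1133 CPM in the others. The markers split: WT1 was at 15.8 CPM and 146 CPM, a ratio of 0.11 (0.01 to 0.39), SOX17 at 182 CPM and 391 CPM, and SPP1 at 1374 CPM and 839 CPM. COL3A1, a collagen high in S2, had no UMI in the 18 cells. The S2 list described below averaged 1.67 ± 1.81 UMIs per 1000 in the FN1-high cells (SD, 18 cells) and 0.751 ± 1.02 in the others (381 cells). That list holds SERPINE2 and FAM84B, named above for their difference in these cells, so its rise is not independent of that choice. The S4 list averaged 0.722 ± 0.895 in the FN1-high cells and 0.483 ± 0.698 in the others. The S1 list differed in the other direction, at 1.78 ± 1.86 and 2.54 ± 2.35. The S3 and S5 lists averaged 0.556 and 2 in the FN1-high cells, against 0.643 and 2.05 in the others. Whether any of these differences exceeds counting error in 18 cells was not tested.

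FN1 was one of several genes whose State C transcripts sat in few cells. Over 6950 genes with 50 or more UMIs in State C, the 5 cells with most UMIs of a gene held a median of 11.2% of them, and 15 genes had 40% or more there. Counts were taken at full depth, so such a share tends to be larger for genes of few UMIs and to fall on deep cells. The median over all genes is not matched for level. The 20 genes with the highest such share were singled out after their values were seen. They include secreted factors (CXCL8, CXCL1, EDN1, STC2, LTB, IGFBP3, IGFL1, PTGDS, CHI3L1), matrix and contractile genes (FN1, COL3A1, ACTA2), interferon-stimulated genes (MX1, IFI44L) and the keratin KRT19.

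CXCL8, the chemokine interleukin-8, had 67 UMIs in State C, of which 13, 13, 10, 8 and 6 lay in 5 cells, 74.6% in all. LTB, lymphotoxin beta, had 165 with 64 in a single cell. Without its 5 highest cells CXCL8 stood at 5.95 CPM, against 23.1 CPM with them, and LTB at 26.4 CPM, against 56.9 CPM with them and 13.7 CPM in S4, its highest later state. IGFL1, an insulin growth factor-like protein, had 459 UMIs with 72, 54, 44, 43 and 43 in 5 cells, and stood at 71.1 CPM without them, against 158 CPM with them and 65.1 CPM in S1. After 10 CPM are added, neither LTB nor IGFL1 is then 2-fold above its highest later state, although both are among the 28.

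ACTA2 had 204 UMIs in State C, of which 61, 19, 17, 16 and 9 lay in 5 cells, and COL3A1 had 95, with 24, 12, 10, 10 and 4. MX1, an antiviral GTPase, had 97, with 12, 12, 12, 5 and 5, and KRT19 had 111, with 18, 15, 6, 6 and 5. The high cells of different genes were mostly different cells: the 100 places were filled by 75 cells, 57 of them in 1 place only and none in more than 4. Of the 190 gene pairs 6 shared 2 of their 5 cells and none shared more, and the pairs that did include CXCL8 with STC2, COL3A1 with WNT2B, PTGDS with KRT19, and MX1 and CXCL1 each with IFI44L. The 75 cells had a median of 10941 UMIs, and 5 of them carry a barcode found in another library. No doublets were called, and the part of barcode sharing or of 2 cells in a droplet was not tested.

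**Figure D4:**
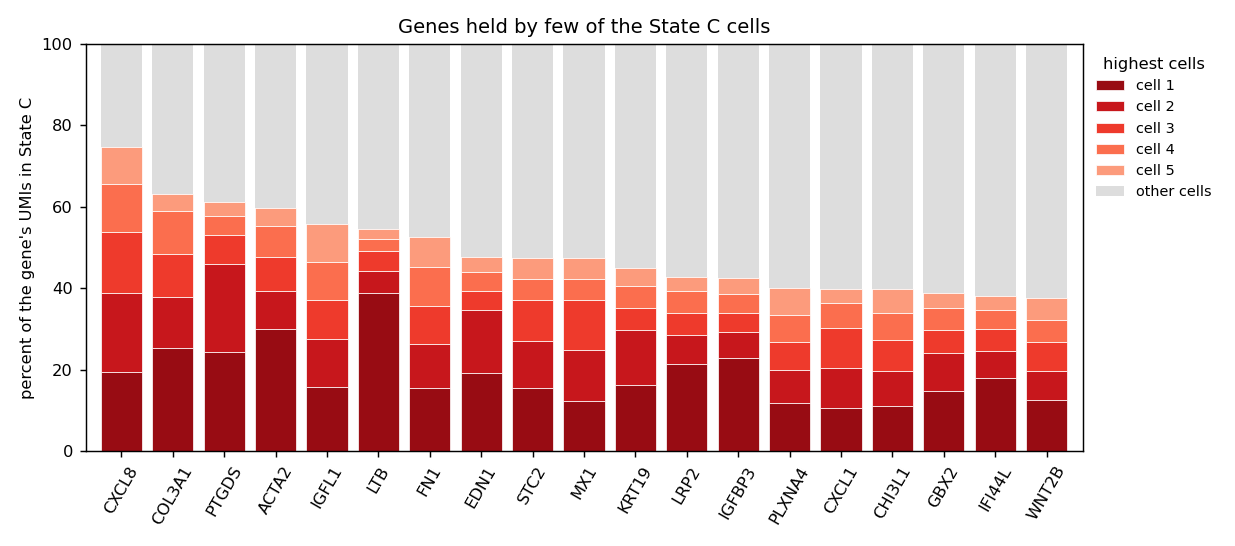
Share of a gene's State C UMIs held by the 5 cells with most of them, for 19 of the 20 genes of highest share, each bar divided into those 5 cells (red) and all other cells (grey). CXCL8 reaches 74.6%, and in LTB 1 cell gives most of the red part.

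Whether single untreated cells already held later-state genes was asked with 1 list per later state, made of up to 25 genes higher in that state than in the other 4 later ones. State C was not used to choose them, but the later cells compared below were. By that choice each list is high in its own state and low in the other 4 later ones. The S1 list holds among others IFI6, IFI27, MX1, NMNAT2 and IGFL1, the S2 list FAM84B, COL3A1, SERPINE2, IGFBP3 and SFRP1 (20 genes qualified), the S3 list KRT19, KLK10, PTGDS, FLG and CD74, the S4 list VCAM1, RGS4, TGFBI, NNMT and SLC12A2, and the S5 list GDF15, HMOX1, DDIT4, ASNS and HIST1H4C. In State C 0, 1, 3, 7 and 1 members of the S1 to S5 lists are at 0, and 9, 18, 23, 24 and 24 are at least 2-fold lower than in the list's own state. Only the S1 list had members higher in State C than in its own state, namely IGFL1, CHI3L1 and LEMD1.

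Summed over a list, State C cells held part of the S1 list and little of the others. Per 1000 UMIs the S1 list averaged 2.51 ± 2.33 in State C cells and 5.25 ± 3.62 in S1 cells (SD over 399 and 1728 cells). The S2 list averaged 0.792 ± 1.08 in State C cells and 6.34 ± 5.02 in S2 cells, and the S3 list 0.639 ± 0.880 in State C cells and 4.18 ± 3.19 in S3 cells. The S4 list averaged 0.494 ± 0.708 in State C cells and 5.75 ± 3.64 in S4 cells, and the S5 list 2.05 ± 1.77 in State C cells and 7.25 ± 3.28 in S5 cells. For the S1 list State C exceeded the other later states, which averaged 0.580 to 1.35 and were low by the choice of genes. For the S3 list it lay just above them (0.285 to 0.612). For the S5 list it lay at their level (2.05 to 2.50), and for the S2 and S4 lists it was below each of them (1.14 to 2.15 and 0.808 to 1.5).

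State C cells at the typical level of a later state were few. The median of S1 cells, 5 UMIs per 1000, was reached by 50 State C cells (12.5%, 9.45 to 16.2), against 50.6% of S1 cells and 3.14% of S2 cells. The S2 median was reached by 7 State C cells (1.75%), the S3 median by 4 (1.00%) and the S5 median by 9 (2.26%). The S4 median of 5 was reached by 0 of 399 State C cells, which allows a share of up to 0.920%. That limit covers only the members that the untreated library could show, since 7 of the 25 S4 list genes are listed at 0 in State C and a gene in under 1% of a library's cells can be listed so. The lower line of the 5th percentile of the own state was reached by 86.0%, 49.4%, 38.8% and 31.1% of State C cells for the S1, S2, S4 and S5 lists. For the S3 list that percentile is 0, so that every cell reaches it. That line falls at 1 UMI for the S1, S2 and S4 lists and at 3 for the S5 list, so it separates cells poorly at this depth.

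**Figure D5:**
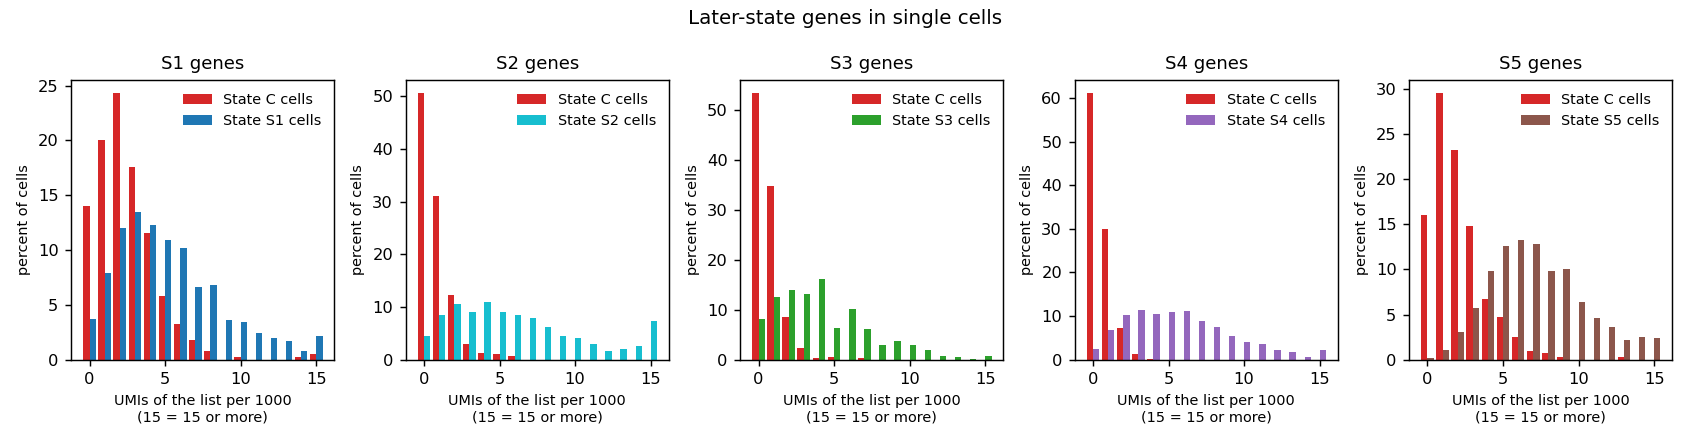
Distribution over State C cells and over cells of the list's own state of the UMIs per 1000 of each later-state list, 1 panel per list. State C lies left of the own state in each panel, nearest for the S1 list (means of 2.51 and 5.25) and farthest below for the S4 list (0.494 and 5.75). The own state is high by the choice of each list.

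The State C cells highest for a list were mostly high through 1 or 2 genes. The top cell of the S1 list had 26 UMIs per 1000, and 54 of its 82 list UMIs at full depth were IGFL1, which also led the cells ranked 2 and 3. The top cell of the S3 list had 7 per 1000, with 18 UMIs of KRT19, 8 of PTGDS and 4 of KLK10 among 37. PTGDS shares 66.0% of its end words with other entries of the annotation. Another S3-list cell had 37 UMIs of FLG (filaggrin) among 40. The top cell of the S2 list spread more widely, with 23 UMIs of FSTL1, 17 of SERPINE2 and 8 of MEST among 68 over 12 genes, and the top cell of the S5 list had 24 of HIST1H4C among 26. The summed list varied 1.36, 1.26, 0.893, 0.968 and 1.05 times as much in State C as independent members would, against 1.47, 1.58, 1.18, 1.49 and 1.03 in the own states. State C cells with a barcode found in another library did not hold more of the S2 list, at 0.550 UMIs per 1000 against 0.819 in the others, and held 2.33 against 2.02 of the S5 list.

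Chromosome 1 separated State C from S2 to S5 across many genes. Its genes took 14.5% of the nuclear UMIs in State C, against 13.4%, 10.5%, 8.40%, 7.88% and 9.31% in S1 to S5. Of the chromosome 1 genes tested, 12 of 544, 55 of 525, 180 of 509, 206 of 506 and 142 of 542 were higher in State C and 24, 20, 11, 13 and 29 were lower, with median log2 differences of 0.07, 0.38, 0.79, 0.86 and 0.46, where all tested genes had medians of 0.02, 0.02, 0.01, 0.10 and -0.11. ENO1, S100A10, S100A16, CKS1B, F3, PARP1 and NMNAT2 lie there. Of the 28 genes above all later states 5 are on chromosome 1, and of the 25 below none is, while 10.3% of all placed genes are, tested or not. Among tested genes it holds 544 of 4039 against S1 and 506 of 4174 against S4. Among single State C cells the share had a median of 14.4% and ran between 11.3% and 17% from the 5th to the 95th percentile, against 5.73% to 10.0% in S4, and 1 of 399 State C cells (0.251%, 0.00635 to 1.39) was at or below the S4 median of 7.88%. The number of chromosome copies was not measured here.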

How the data were processed

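The files hold whole-number UMI counts per gene and cell, deposited by the authors as 1 matrix, and the authors' cell table, which gives each cell a population, a state, UMI and gene totals and, as a fraction, the mitochondrial share. The submitters' processing notes name Seurat 2.3.2 and the builds hg38 and GRCh38. The aligner, annotation, cell filters, the way states were assigned and why cells are listed could not be taken from the labels or files used here. The name of the cell table refers to G1. All 8240 listed cells were found in the matrix with identical UMI and gene totals, 7322 by name and the others, of T40, by barcode.

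Counts were summed by state and scaled to CPM. Differences are of log2(CPM + 10), State C minus the later state, called at 1 (2-fold). Genes were named by rule: the markers, a fixed set, the 12 genes farthest above and the 12 farthest below all later states, the 15 of largest excess variation, up to 4 leading members of each gene list, and in each later-state list the 4 members highest in that state and the 4 highest in State C. Other named genes were chosen after their values were seen, and some genes are not reported here. Members, lists and rules were chosen with earlier results of these data known. Each cell of 1000 UMIs or more was thinned to 1000 (5000 for correlations). Sequence sharing was scored as 31-base words in the last 500 bases of GENCODE transcripts. No doublet caller was run. With 1 library per population no test was made. Scaling alternatives used edgeR 4.0.16 (TMM) and DESeq2 1.42.0 (size factors), with Python 3.11.15 and R 4.3.3, and the calculations were tested on simulated data.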

Additional observations from a re-analysis of the deposited data

How the results depend on the processing

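No paired analysis was possible because State C was measured in 1 library and no number pairs it with the others, and for the same reason no replicate could be left out. Over 209 alternative values of 24 summary results, 129 stayed near the reported value by a rule that allows wide changes in counts, and 80 moved. For instance, the 28 genes above all later states counted as near at 41 under DESeq2 size factors. They also did at 19 without the State C cells of 3 or more G2/M UMIs. The 24 results are counts and percents without a sign, so none could reverse. Over 2040 values of named genes none reversed, 51 no longer passed the fold and 56 moved otherwise. Changing the minimum left all 159 named genes the same, because a gene's difference does not depend on it. Of 418 values of list medians 23 moved and none reversed. The causes of the moves were not tested, except that a larger pseudocount or minimum leaves fewer genes able to pass. Leaving out the State C cells of 3 or more G2/M UMIs (chosen after seeing the data) moved none of the 13 summary results so checked by that rule. It still took 9 of the 28 genes from those above all later states and 6 of the 25 from those below. It also moved the medians of the G2/M list against S1 to S4. The depth limits single-cell statements most, since 1 UMI is the smallest step at 1000 UMIs per cell.

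TMM and DESeq2 size factors gave 376 and 357 genes lower in State C than in S5, beside 693 and 732 higher. A pseudocount of 1 gave 135 genes higher than in S1, 46 above all later states and 42 below. A pseudocount of 50 gave 24 higher and 66 lower against S1, 69 and 149 against S2, 112 and 133 against S3, 215 and 227 against S4, and 288 and 204 against S5, with 10 above all and 4 below. A minimum of 200 CPM gave 25 and 70, 76 and 107, 108 and 93, 171 and 135, and 203 and 148 against S1 to S5, with 9 above all and 5 below. With no minimum 346 were lower against S1, 607 against S2 and 804 against S4, 526 were higher and 675 lower against S3, 825 and 1076 against S5, and 44 were below all. With all untreated cells, in the table or not, 242 and 339 were higher against S1 and S2, 134 were above all and 56 below. With the largest library of each later state 159 were higher against S1, 365 higher and 657 lower against S2. Thinned cells gave 144 higher against S1, 52 above all and 46 below, and the 17 sums by state and library 10 above and 3 below.

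Genes of excess 1 or more numbered 9 at a minimum of 500 CPM and 20 at 5000 UMIs per cell. For the later-state lists, taking the median of the own state in place of the 5th percentile gave the 12.5%, 1.75%, 1.00%, 0% and 2.26% reported, and lists of 50 genes gave 89.2%, 70.7% and 6.27% for S1, S3 and S5. Lists of the 25 genes highest over State C, instead of over the other later states, gave 11.3%, 8.02%, 10.0%, 7.27% and 24.1%. These genes were chosen for being low in State C, which lowers such shares. Without cells under 3000 UMIs the S5 share was 25.5%. At 700 UMIs per cell it was 100% for S1, S2 and S4 and 75.3% for S5, and at 1500 it was 94.3%, 65.8%, 54.1%, 20.5% and 16.8%. Without the 50 highest genes, chromosome 1 took 15.7% in State C and 14.9%, 11.6%, 9.45%, 8.97% and 10.9% in S1 to S5.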
